A study of Carassius auratus with 4 samples.

Results

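Muscle contractile gene clones are the spots on this goldfish (Carassius auratus) cDNA array whose printed description names a protein of the contractile machinery of muscle. A clone was taken where its description held, in any case of letters, the word myosin, troponin, tropomyosin, parvalbumin, creatine kinase, titin, nebulin, myoglobin, skeletal or alpha-actin and did not hold non-muscle. This gave 149 of the 8100 gene clones on the array, under 43 gene names. Of these clones, 125 carried sarcomere or muscle names and 14 were brain-type or mitochondrial creatine kinase. The other 10 had other names that share a word with the rule. The last group held unconventional myosins, a ubiquitin ligase, a phosphatase subunit and alpha-actinin 1 (the cytoskeletal form). It also held 2 clones of myosin-9 spelled "nonmuscle" without a hyphen. The rule used the printed names and no measured value.

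The study treated dispersed cells of male and female goldfish pituitaries with 10 nM goldfish secretoneurin (gfSN), a peptide cut from secretogranin II, for 12 h in static incubation. The control RNA came from pituitary cells labelled as having had no incubation, so by the labels the groups differed in incubation as well as in the peptide. Each of 4 arrays carried RNA of both groups in 2 dyes, with secretoneurin RNA in Cy5 on replicates 1 and 3 and in Cy3 on replicates 2 and 4. The labels do not give an age or a strain, and do not state whether the 4 pairs were separate cultures. The p-values below therefore cover only the spread among the hybridised RNA pairs, part or all of which may be technical.

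Striated muscle shortens when myosin heavy chains of the thick filament pull on actin of the thin filament. Calcium binding to troponin C shifts the position of tropomyosin on the actin, and titin and nebulin hold the filaments in register. Creatine kinase restores ATP, and parvalbumin, abundant in fast fish muscle, takes up calcium. The pituitary is an endocrine gland with no striated muscle of its own, while brain-type creatine kinase and unconventional myosins are found in many cells. The coding sequences of related actins, myosins and tropomyosins are similar, and a cDNA spot can also bind the transcript of a relative, so each signal belongs to a clone and not for certain to 1 gene. The share of signal from relatives was not tested.

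A clone was called above background in a channel of an array by the mean signal of its spots. This had to exceed the mean of local background plus 2 background SDs. Each clone had 2 spots, and a spot that carried an ignore mark was left out of the mean. With 4 arrays and 2 channels there were 8 readings per clone, 4 per group and 4 per dye. All 149 clones had all 8 readings. Brightness depends on the printed DNA and the length of the clone, so counts of readings say whether a signal was seen and do not rank transcripts.

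Of the 149 clones, 14 (9.40%) were above background in all 8 readings, against 10.4% of all gene clones. Another 19 (12.8%) were above background in no reading, against 14.5% of all gene clones. The second count was 37 without replicate 3, and with 1 or 3 background SDs the counts were 36 and 9 in all readings and 1 and 72 in none. The other clones lay between, with 11 at 7 readings, 5 at 6, 8 at 5, 11 at 4, 22 at 3, 32 at 2 and 27 at 1. Both shares were near those of the whole array. Among the 125 clones with sarcomere or muscle names the shares were 10.4% and 12.8%. Of all 1192 readings, 38.6% were above background, against 35.1% over all gene clones.

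Detection followed the dye. In Cy5, 87, 75, 116 and 72 of the 149 clones were above background on replicates 1 to 4, and in Cy3 29, 26, 29 and 26. The Cy5 count was the higher on every array, and the counts of the dyes did not overlap. The mean excess of Cy5 over Cy3 was 60 ± 18.7 clones (SD, n = 4 arrays, exact sign-flip p = 0.12 two-sided, the smallest that 4 arrays allow). Over all gene clones the shares on replicates 1 to 4 were 52.7%, 45.1%, 75.4% and 39.9% in Cy5 and 18.6%, 16.8%, 17.3% and 15.2% in Cy3. Of empty spots, 3.22% to 14.6% passed in Cy5 and 0% to 0.617% in Cy3. Of buffer spots, 4.62% to 25.9% passed in Cy5 and 0.615% to 3.08% in Cy3. Empty and buffer spots were read singly and clones as the mean of their spots, so these shares are not fully alike. Median background over all gene clones was 19.3 to 43.1 scanner units in Cy5 and 146.8 to 251.8 in Cy3. A single Cy5 reading was thus also seen at spots with no cDNA, most often on replicate 3. Cy3 readings were rarer, and 110 of the 149 clones (73.8%) had none, against 76.1% of all gene clones.

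**Figure D1:**
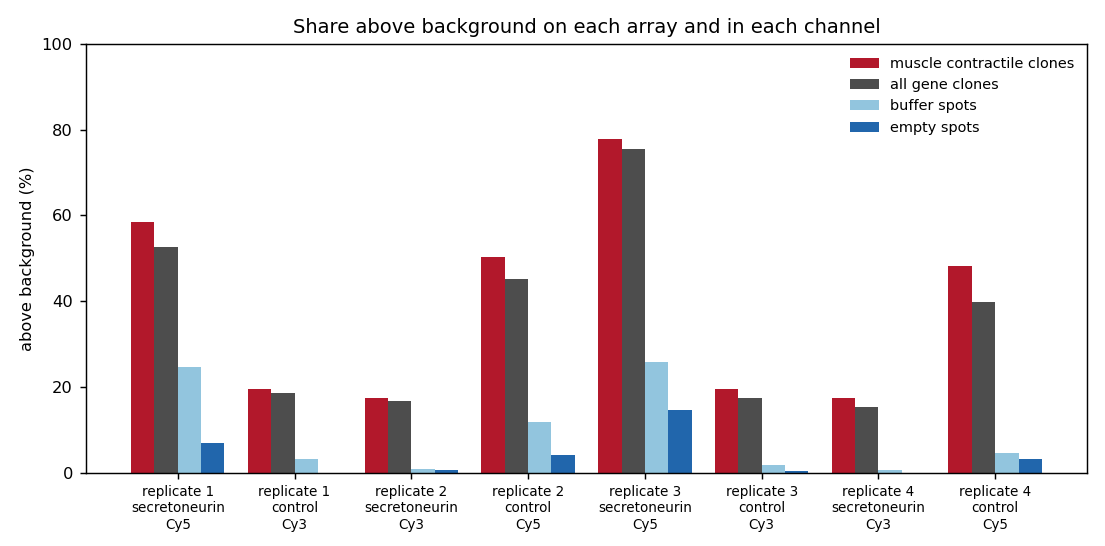
Bars give the percentage of the 149 muscle contractile clones, of all gene clones, of buffer spots and of empty spots that were above background, for each channel of the 4 arrays (vertical axis, from 0 to 100%). Buffer and empty spots were read singly and clones as the mean of their spots. The muscle contractile clones run 48.3% to 77.9% in Cy5 and 17.4% to 19.5% in Cy3, close to all gene clones, whichever group the dye carried.

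The tissue label was checked with pituitary markers read the same way. Of 15 clones of growth hormone, thyrotropin beta, gonadotropin, secretogranins and carboxypeptidase E, 8 were above background in all 8 readings and 0 in none. Over all gene clones these shares were 10.4% and 14.5%. Several of the 15 are clones of secretogranin II, so they are not 15 separate markers. Carboxypeptidase E clone 15o22 passed in 1 reading and gonadotropin clone 42g17 (GTH-II) in 3, both with 0 in Cy3. Of 13 clones with globin in the name, read as markers of red blood cells, 0 were above background in all 8 readings and 5 in none. Clone 42b05, the highest at 5 readings, is named only for a globin domain and may not mark red blood cells. Among the others the highest was clone 40f17 at 4. The 6 collagen and vimentin clones, which mark connective tissue, had 1 to 3 readings each. No clone of transgelin, calponin or desmin was read, and the marker rule passed over any named caldesmon. Smooth muscle was thus not checked. No clone was matched for prolactin, pro-opiomelanocortin or somatolactin.

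Among thick filament proteins, the fast skeletal myosin light chain 3 clones gave signal most often. This alkali light chain wraps the neck of the myosin head. Of its 12 clones, 6 were above background in all 8 readings and 1 in none, with 33 of 48 Cy3 readings passing. Over all gene clones, 10.4% passed in all 8 readings and 14.5% in none, and 5477 of 32241 Cy3 readings passed. Clone 27m22 had signals of 26.3, 6.01, 17.5 and 7.90 times its threshold in secretoneurin cells and 8.40, 29.1, 7.21 and 27.3 times in control cells on replicates 1 to 4. Every one of these lay well over 1, and on each array the higher value was the Cy5 one. Clone 28b17 ran from 4.26 to 15.4 times its threshold over the 8 readings. The other 4 were closer to background, with lowest readings of 1.76 times for clone 30k09, 1.24 for 40g19, 1.04 for 24e09 and 1.10 for 29c15. Clones 29d16 and 28o11 passed in 7 readings, failing in secretoneurin RNA on replicate 2. Under the same name, clone 30b15 passed in 2 readings and clone 30d21 in none, so clones of 1 name did not give 1 answer.

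The other light chains were mixed. Of 9 clones of fast skeletal myosin light chain 1a, the longer alkali light chain, clone 40m06 passed in all 8 readings and clone 27k08 in 7. The other 7 clones passed in 0 to 4 with no Cy3 reading, as held for 76.1% of all gene clones. Clone 40m06 read 10.8, 4.28, 13.99 and 5.97 times its threshold in secretoneurin cells and 4.44, 9.40, 4.66 and 13.9 times in control cells. It was bright in both groups, again most in Cy5. The 10 clones of myosin regulatory light chain, the chain whose phosphorylation tunes contraction, passed in a median of 2.5 readings (range 1 to 7). In Cy3, 3 of them passed at least once and 7 on no array. This was near all gene clones, where the median was 2 readings and 76.1% had no Cy3 reading above background.

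The myosin heavy chain, the motor itself, showed no such signal. Its 9 clones passed in a median of 1 reading (range 0 to 4), 3 of them in none, and 0 of 36 Cy3 readings passed. Over all gene clones the median was 2 readings, 14.5% passed in none and 76.1% had no Cy3 reading above background. Only clone 22i16 passed in Cy5 on all 4 arrays. The myosin-binding proteins, which brace the thick filament, passed in 0 to 2 readings over 5 clones of types C and H. Heavy chain clones thus had a lower median than light chain 3 clones (1 against 7.5 readings), but the ranges overlapped (0 to 4 and 0 to 8). This compares clones of different length and DNA and was not tested.

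For the thin filament, skeletal alpha-actin gave signal in 5 of its 6 clones in both dyes. Clones 29n15, 15c08 and 26b14 passed in all 8 readings, 14m11 in 7, 22o23 in 5 and 40d24 in 2. Over all gene clones, 10.4% passed in all 8 readings, 76.1% had no Cy3 reading above background and the median was 2 readings. Clone 29n15 read 20.1, 6.81, 20.8 and 7.08 times its threshold in secretoneurin cells and 8.41, 21.4, 6.30 and 18.9 times in control cells. The lowest of the 8 readings was 2.97 times the threshold for clone 15c08 and 1.77 times for clone 26b14. Actins of all cells share most of their coding sequence, so these clones may also read cytoplasmic actin, and the array does not separate them. Tropomyosin 1 alpha chain, which lies along the actin filament and also exists in non-muscle forms, passed in a median of 3 of 8 readings over 8 clones, with clone 30h14 at 7 and 7 clones without a Cy3 reading. Tropomodulin-4, which caps the thin filament, passed in 1 reading. It and those 7 tropomyosin clones had no reading above background in Cy3, as held for 76.1% of all gene clones.

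Troponin, the calcium switch, was carried by 11 clones. Of 3 clones of skeletal muscle troponin C, the calcium-binding subunit, 27m12 passed in all 8 readings, 39o18 in 6 and 21g17 in 4. Clone 27m12 read 6.32, 1.36, 6.57 and 2.90 times its threshold in secretoneurin cells and 3.72, 6.01, 2.88 and 8.30 times in control cells. The inhibitory subunit troponin I (3 clones, fast and slow) passed in 1 or 2 readings, and the tropomyosin-binding subunit troponin T (4 clones, fast and cardiac) in 0 to 2. A clone named Troponin C-akin-1 passed in 2 readings. It and the troponin I and T clones had no reading above background in Cy3, as held for 76.1% of all gene clones, and the difference between subunits was not tested.

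The 11 clones of scaffold proteins passed in 11 of 88 readings (12.5%, against 35.1% over all gene clones). Of the 11, 4 passed in none, against 14.5% of all gene clones. The 4 clones of titin, the giant spring of the sarcomere, passed in 2 of 32 readings, and 2 of them in none. Telethonin, which caps titin at the Z-disc, passed in 1 of 24 readings over 3 clones. The single clones of nebulin, myomesin 1, alpha-actinin 2 and alpha-actinin 3 passed in 3, 1, 2 and 2 readings. None of the 11 passed in Cy3, as held for 76.1% of all gene clones.

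Muscle creatine kinase, named M2-CK and M3-CK on the array, was above background in 46 of 72 readings over 9 clones, 15 of them in Cy3. This was 63.9% of its readings, against 35.1% over all gene clones. Clone 26m13 (M3-CK) passed in all 8 readings, with 7.71, 4.29, 18.9 and 5.43 times its threshold in secretoneurin cells and 6.15, 8.39, 4.92 and 8.13 times in control cells. The 3 M2-CK clones passed in 5 to 7 readings and the 6 M3-CK clones in 2 to 8. Brain-type creatine kinase, the form of brain and many other tissues, passed in 29 of 96 readings over 12 clones (30.2%, against 35.1% over all gene clones). Each of the 29 was in Cy5, and 0 of 48 Cy3 readings passed. No Cy3 reading above background was also the case for 76.1% of all gene clones. Of 2 mitochondrial creatine kinase clones, 30k23 passed in 5 readings and 61i19 in none.

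Parvalbumin was carried by 23 clones under 3 names. Only clone 22p10, named for cadmium-substituted parvalbumin B, passed in all 8 readings, with 1.74, 2.12, 5.75 and 2.06 times its threshold in secretoneurin cells and 1.98, 5.60, 3.17 and 3.48 times in control cells. The 15 clones named parvalbumin passed in a median of 3 readings (range 0 to 7) and the 6 named parvalbumin beta in a median of 2.5 (range 0 to 7). The median over all gene clones was 2. In Cy3, 16 of the 23 clones passed on no array, as held for 76.1% of all gene clones. Myoglobin, the oxygen store of red and cardiac muscle, passed in 7 of 40 readings over 5 clones, 0 of them in Cy3. This was 17.5% of its readings, against 35.1% over all gene clones.

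**Figure D2:**
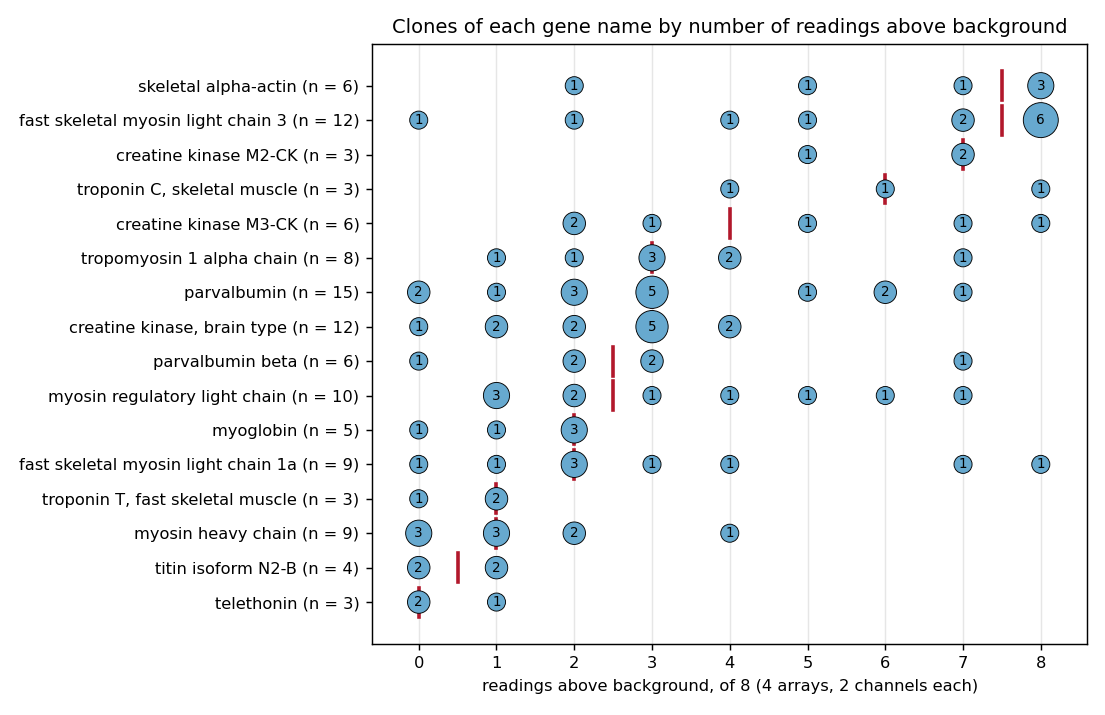
Each circle gives how many clones of a gene name (vertical axis, names with at least 3 clones) passed in a given number of readings (horizontal axis, 0 to 8), and the red bar marks the median. Skeletal alpha-actin and fast skeletal myosin light chain 3 have medians of 7.5, while myosin heavy chain, titin, telethonin and troponin T have medians of 1 or less, and most names spread over many values.

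Of the 10 clones whose other names share a word with the rule, clone 61h05 of myosin-10 (myosin X), a motor of cell protrusions, passed in all 8 readings. Its signals were 3.52, 1.26, 3.09 and 1.85 times the threshold in secretoneurin cells and 1.52, 5.11, 1.21 and 4.69 times in control cells. The other 9, among them myosin Ic, myosin IXB, myosin-18A and myosin-9, passed in 0 to 3 readings. None of the 9 passed in Cy3, as held for 76.1% of all gene clones.

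**Figure D3:**
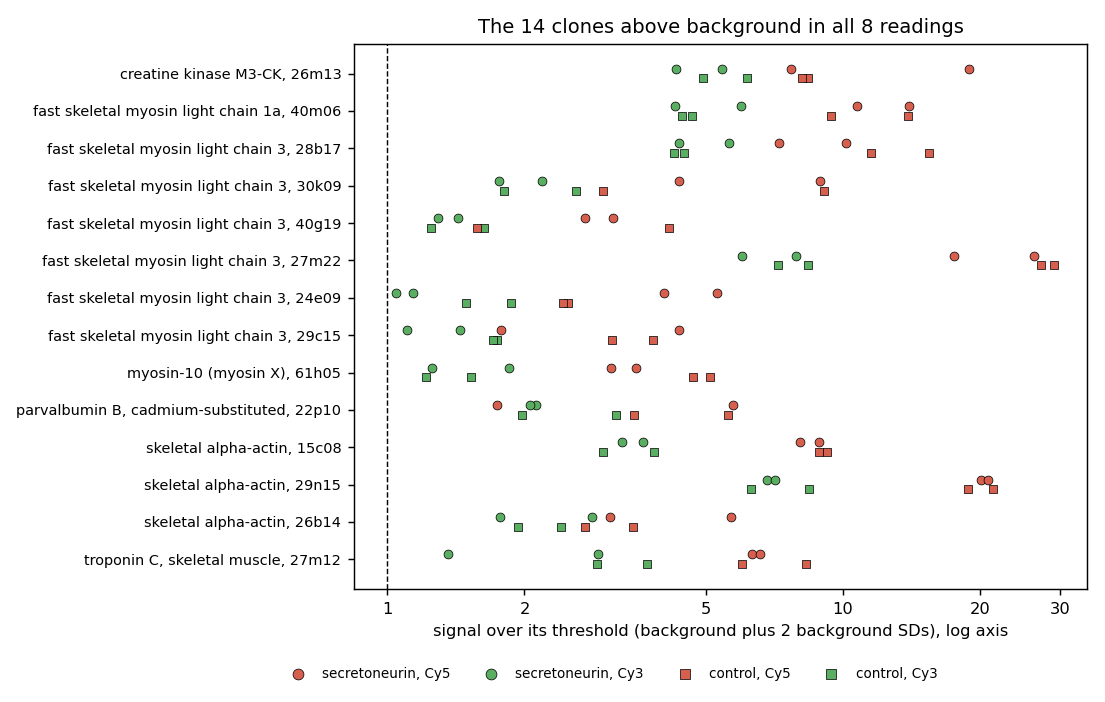
Points give the signal as a multiple of its threshold (horizontal log axis, dashed line at 1) in the 8 readings of each of the 14 clones that passed in all of them, with circles for secretoneurin, squares for control, red for Cy5 and green for Cy3. In most clones the Cy5 readings lie right of the Cy3 readings, and circles and squares of 1 colour lie in the same range.

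The 19 clones that passed in no reading were 3 of myosin heavy chain, 2 each of titin, telethonin and parvalbumin, and 1 each of fast skeletal myosin light chains 1a and 3, troponin T, parvalbumin beta, myoglobin, brain-type creatine kinase, mitochondrial creatine kinase, cardiac-type myosin-binding protein C, a LIM domain protein and protein phosphatase 1 regulatory subunit 12B. A reading under the threshold leaves the presence of the transcript undecided. When signal was set against the 95th percentile of empty spots in place of local background, 33 clones (22.1%) passed in all 8 readings, against 19.6% of all gene clones, and 4 (2.68%) in none, against 4.67%.

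Whether detection differed with secretoneurin was asked next. On replicates 1 to 4, 87, 26, 116 and 26 of the 149 clones passed in secretoneurin RNA and 29, 75, 29 and 72 in control RNA. The secretoneurin count was the higher where it was in Cy5 and the lower where it was in Cy3, so the difference turned with the dye. The means were 63.8 ± 45.2 and 51.2 ± 25.7 clones (SD, n = 4), and the mean difference of 12.5 ± 70.3 was smaller than its spread (exact sign-flip p = 0.75 two-sided, where 0.12 is the smallest possible). Without replicate 1 it was -2.67 and without replicate 3 -12.3. No clone passed on all 4 arrays of 1 group and none of the other, as over all gene clones (0% in each direction). On at least 1 array of secretoneurin and no array of control 44 clones passed (29.5%), against 32.1% of all gene clones, and the reverse held for 2 (1.34%), against 3.17%. All 46 passed only in Cy5, 37 of them on replicate 3. Within Cy5 the 2 groups were read on different arrays, so array and group cannot be told apart in these.

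The same 4 arrays were then tested for a change in level with secretoneurin. In limma with a dye effect in the model, 0 of the 149 clones passed an adjusted p of 0.05 in either direction (0% of the 8089 gene clones tested), and the smallest adjusted p was 0.998. At an unadjusted p under 0.05, 2 clones stood higher (1.34%, against 1.2% of all tested) and 1 lower (0.671%, against 1.56%). The higher ones were myoglobin clone 14n23 and tropomyosin clone 30a24, and the lower one was light chain 3 clone 28o11. Clone 30a24 was named after its values were seen (0.17 ± 0.059, below 0 on replicate 4). It had no Cy3 reading above background, so each of its ratios had a channel under the threshold. The count of 0 depended on the arrays used. With a dye effect and replicate 2 or 4 left out, the array alone in its dye orientation was fitted exactly. The spread behind those p-values came from replicates 1 and 3 only, so they do not measure the spread among all arrays. Without replicate 2, 10 clones were called lower (6.71%, against 3.88% of all tested) and without replicate 4, 8 were called higher (5.37%, against 5.23%). In the other direction 0 clones were called, against 0.465% and 0.225% of all tested. The sets had 6 clones in common, which turned in direction. With the dye effect left out and the same replicate removed, 0 were called.

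The median log2 ratio of secretoneurin over control was 0.0093 over the 149 clones, against 0.0014 over all tested, with 83 above 0 and 66 below. The estimates ran from -0.25 to 0.32, and a typical clone had an SE of 0.075 and an unadjusted 95% confidence interval of ± 0.21. Changes of that size or less could not be seen. Larger ones could also be missed, since calls used p-values adjusted over all clones tested and some clones had wider errors. In bulk RNA, fewer cells of a type and less RNA per cell cannot be told apart. Replicate spots of a clone on 1 array differed by a median of 0.21 in log2 ratio, against 0.19 over all gene clones.

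Of the 149 clones, 3 had ratios above 0 on all 4 arrays (2.01%, against 5.17% of all gene clones) and 8 below 0 (5.37%, against 5.55%). The lower clone of smallest unadjusted p was 28o11 of fast skeletal myosin light chain 3, with log2 ratios of -0.11, -0.39, -0.32 and -0.18 on replicates 1 to 4 and an estimate of -0.25 ± 0.073 (SE over 4 arrays). In limma its p was 0.024 unadjusted and 0.998 adjusted. Its ratio lay furthest below 0 on replicate 2, where its secretoneurin channel was under the threshold. Troponin C clone 27m12 followed with ratios of -0.04, -0.14, -0.30 and -0.30 and an estimate of -0.20 ± 0.074. Their ratios kept 1 sign but did not pass the test. Of the same kind were myosin-9 clone 52a15 (-0.17 ± 0.077), myosin Ic clone 25d21 (-0.12 ± 0.059) and light chain 3 clone 27m22 (-0.12 ± 0.064), each with an adjusted p of 0.998 in limma. Clones 52a15 and 25d21 each passed on 1 array in secretoneurin RNA and 2 in control RNA, with 0 Cy3 readings above background. Every ratio of these clones thus had a channel under the threshold.

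The 3 clones above 0 on all 4 arrays were myoglobin 14n23, fast troponin I 17c20 and brain-type creatine kinase 43f12. None was above background in control RNA on any array, each passed in secretoneurin RNA only on replicates 1 and 3 in Cy5, and raising the control signal to the lowest one above background gave no fold over 1. No ratio is given for them. Of the 46 clones that passed in 1 group only, such a bound exceeded 1 for 2, at 1.01 for myosin-18A clone 51c01 and 1.02 for cardiac troponin T clone 30f18.

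In the 14 clones above background in all 8 readings, where both groups were measured on every array, the estimates ran from -0.20 to 0.05, with 10 below 0 and 4 above. Their median was -0.07, against -0.02 over the 839 such clones of the array, and 0 passed the test. Actin clones 29n15, 15c08 and 26b14 stood at 0.05 ± 0.11, 0.01 ± 0.054 and 0.01 ± 0.071. Creatine kinase clone 26m13 stood at -0.06 ± 0.062, light chain 1a clone 40m06 at -0.02 ± 0.066 and parvalbumin clone 22p10 at 0.05 ± 0.054. Each of these 6 estimates lay within 1 SE of 0. Of the other 8, light chain 3 clones 30k09 (-0.12 ± 0.24) and 24e09 (-0.01 ± 0.16) did too. The remaining 6 lay more than 1 SE below 0, namely troponin C clone 27m12, myosin-10 clone 61h05 (-0.09 ± 0.068) and light chain 3 clones 27m22, 28b17 (-0.13 ± 0.063), 40g19 (-0.14 ± 0.078) and 29c15 (-0.17 ± 0.11).

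Of the 12 light chain 3 clones, 11 had estimates below 0, against 4000 of the 8089 gene clones tested and 496 of the 839 above background in all 8 readings. All 3 troponin C clones also lay below 0, but clone 21g17 only at -0.10 ± 0.31. Their mean ratios were -0.15, 0.18, -0.19 and -0.42 on replicates 1 to 4, so replicate 2 lay on the other side. All 3 fast troponin T clones, none above background in Cy3, lay above 0, with mean ratios on both sides of 0 over the replicates. The mean ratios over the 12 light chain 3 clones were -0.14, 0.01, -0.12 and -0.19 on replicates 1 to 4, so replicate 2 did not share the side. The 12 clones read RNA of 1 gene name on the same arrays and are not independent, and none of them passed the test.

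**Figure D4:**
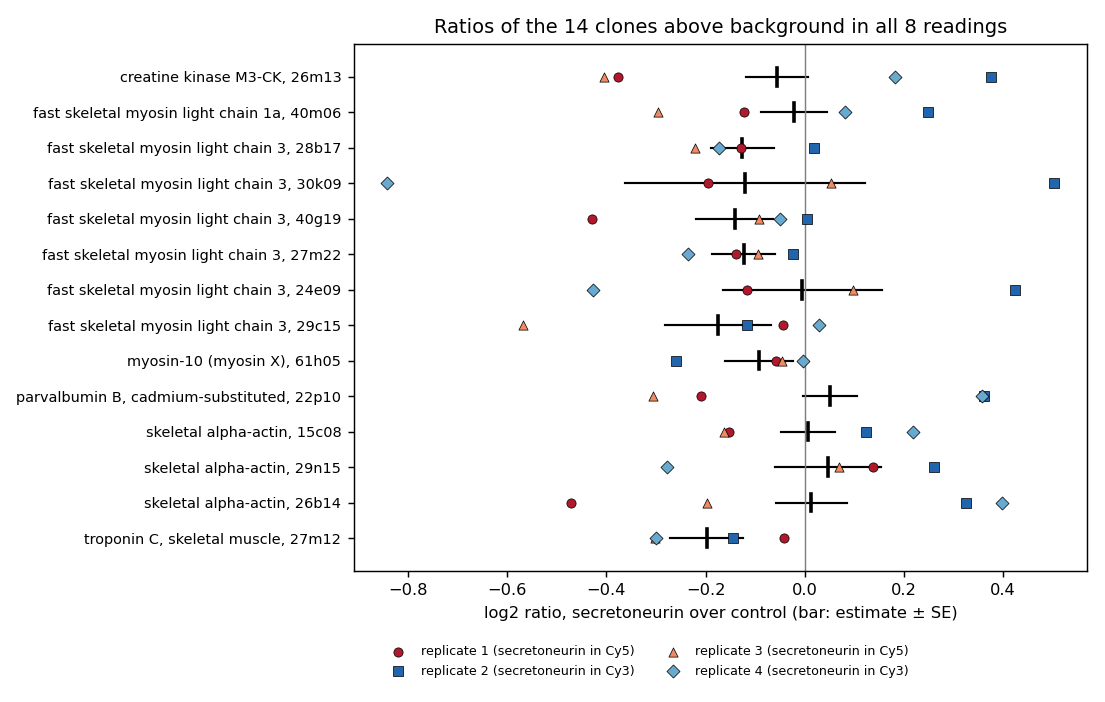
Points give the log2 ratio of secretoneurin over control on each of the 4 arrays for the 14 clones above background in all 8 readings, with the limma estimate and its SE in black. The estimates lie between -0.20 and 0.05, and the arrays of most clones fall on both sides of 0.

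The dye coefficient, the part of a log2 ratio that follows the dye and not the group, did not pass for any clone in limma (0%, smallest adjusted p = 0.715). At an unadjusted p under 0.05 it stood at 12 clones (8.05%), against 6.65% of all tested. The lowest was -0.35 ± 0.071 for actin clone 26b14 and the highest was that of parvalbumin clone 14g06, which had no Cy3 reading above background, so no size is given for it. For 26b14 the ratios of secretoneurin over control were -0.47, 0.32, -0.20 and 0.40 on replicates 1 to 4, so its sign followed the dye on each array.

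A set of clones had ratios of opposite sign on replicates 2 and 4, which share the dye orientation. Parvalbumin clone 27b07 read -0.09, 1.38, -0.03 and -1.58 on replicates 1 to 4, and M3-CK clone 29o21 read 0.16, 1.31, -0.09 and -1.37. M2-CK clone 27m14 read -0.10, 1.40, 0.01 and -0.84. Each was near 0 on replicates 1 and 3, high on replicate 2 and low on replicate 4. Their estimates were -0.08 ± 0.52, 0.00 ± 0.47 and 0.12 ± 0.39, with errors several times the typical SE. The 2 spots of 27b07 differed in log2 ratio by 0.18 on replicate 2 and 0.68 on replicate 4. In signal, 27b07 read 3.26, 2.67, 4.59 and 0.62 times its threshold in secretoneurin cells and 1.65, 3.33, 1.45 and 3.72 times in control cells, so it was below the threshold in the secretoneurin channel of replicate 4 only.

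With a limit of 0.5 either way, set after the values were seen, 12 of the 149 clones (8.05%) were above it on replicate 2 and below it on replicate 4, against 5.41% of all gene clones with 4 ratios, and 0 the other way round. They were 3 of parvalbumin, 3 of muscle creatine kinase and 1 each of mitochondrial creatine kinase, phosphorylase kinase gamma chain, light chain 3, regulatory light chain, tropomyosin and troponin C. All 12 had clone IDs beginning with 12 to 40, where 9.68% of the muscle contractile clones and 11.2% of all gene clones did so, against 0.983% of all gene clones with IDs from 42 to 61. Over all gene clones with 4 ratios, the log2 ratios of replicates 2 and 4 correlated at r = -0.61 (7953 clones, which share the arrays and are not independent). Within clone IDs 12 to 40 it was -0.74 over all gene clones and -0.69 over the muscle contractile ones, and within IDs 42 to 61 it was -0.21 and 0.21. The opposed ratios were thus concentrated in one range of IDs, where the muscle contractile clones had them about as often as other clones. Labels and file headers gave the same dye orientation on all 4 arrays. Whether the RNA on replicate 2 or 4 was other than labelled was not tested, and every ratio of secretoneurin over control given here rests on the labels of both arrays. Of the clones called when replicate 2 was left out, 9 of 10 were among these 12, and when replicate 4 was left out 7 of 8. Of the 6 called both ways, 27b07 stood at -0.82 without replicate 2 and at 0.66 without replicate 4.

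**Figure D5:**
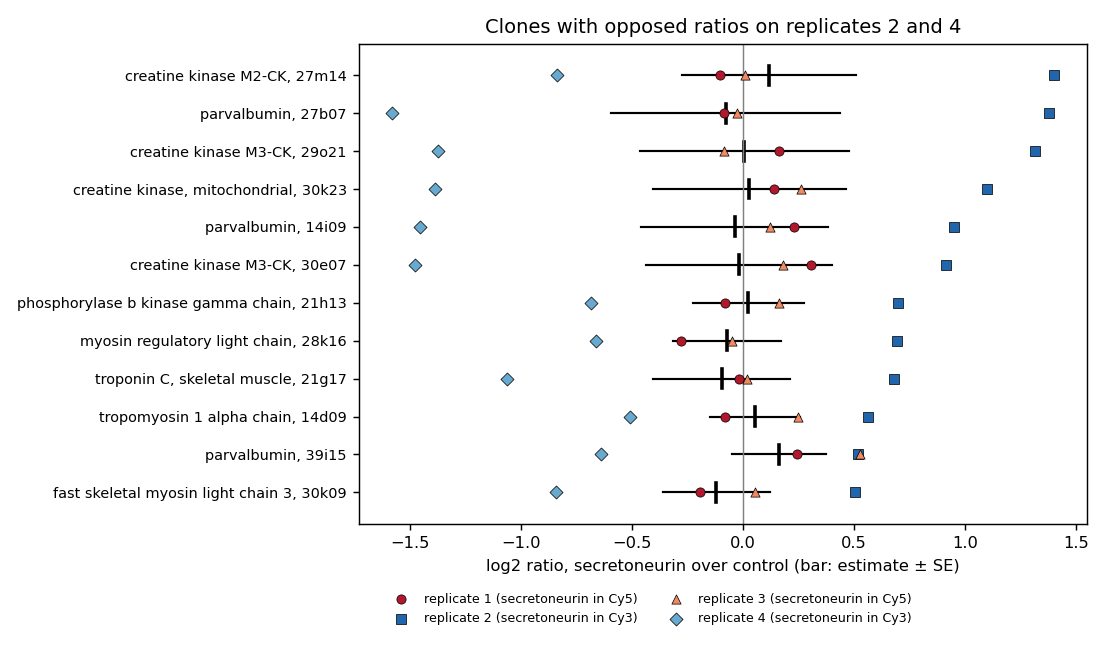
Points give the log2 ratio of secretoneurin over control on each array for the 12 clones above 0.5 on replicate 2 and below -0.5 on replicate 4, with the limma estimate and its SE in black. Replicate 2 lies right of the others in all but 1 clone, replicate 4 left, and the estimates sit near 0 with wide errors.

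The muscle genes that the member rule did not take, such as calcium pumps, glycolytic enzymes of muscle and Z-disc proteins, were read for comparison. Of 37 such clones, 2 passed in all 8 readings (5.41%, against 10.4% of all gene clones) and 5 in none (13.5%, against 14.5%). The 2 were cofilin-2, which severs actin filaments and is the muscle form, and beta enolase, the muscle form of a glycolytic enzyme. Both muscle-type aldolase A clones passed in 7 readings, the calcium pump SERCA1, which refills the muscle store, in 0 to 2 over 5 clones, and cardiac calsequestrin and ryanodine receptor 2 in none. Of the 36 with a value on at least 3 arrays 0 passed the limma test, and their median log2 ratio was 0.00098. At an unadjusted p under 0.05, aldolase A clone 30c03 stood lower, at -0.25 ± 0.071.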

How the data were processed

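Per the file headers, the deposited scanner output gives intensity on a linear scale, for spot and surrounding background, in Cy5 and Cy3. The deposited table of log2 values ran as Cy5 over Cy3 when set against the scanner values, with array medians of 0.0037, 0.031, 0.0037 and -0.046. Its normalization and centring are unknown here, and it served as an alternative only. Intensities were corrected with normexp (offset 50) and log2 ratios normalized by loess over each array with a span of 0.3 and 4 iterations (R 4.3.3, limma 3.58.1). Control spots and the 421 to 981 spots per array that carried an ignore mark were left out. Each clone took the mean of those of its 2 spots that were left. The 8089 clones measured on 3 or more arrays entered lmFit and eBayes. The model held a secretoneurin effect and a dye effect, with 2 residual degrees of freedom. Tests were two-sided, with Benjamini-Hochberg adjustment at 0.05. The number of arrays limits the precision.

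Named clones were those above background in all 8 readings, up to 5 per direction with 1 sign on all 4 arrays and the smallest p, all names with at least 3 clones, clones above background in no reading or in 1 group only, and the extremes of the dye coefficient. The clones, lists and rules were chosen with earlier results of these data known. Gene names are those printed in the array files. Clone sequences and genome positions were not used here.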

Additional observations from a re-analysis of the deposited data

How the results depend on the processing

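The limma fit was already paired, because the ratio of each array is the pair of both groups. This leaves no unpaired fit to set beside it, and no slide block could be fitted for the same reason. The count of clones called for secretoneurin stayed at 0 of all tested under print-tip loess, median centring, no background correction, an offset of 16, the authors' deposited log2 ratios, ignored spots kept, detected clones only and no dye effect. Leaving out 1 replicate gave 0 to 437 calls over all clones and 0 to 10 among the muscle contractile clones, and for the dye effect 0 to 434 and 0 to 10. Leaving out any replicate leaves 1 array alone in its dye orientation. The calls arose without replicate 2 (346) and without replicate 4 (437), where the spread came from replicates 1 and 3. Without replicate 1 or 3, where it came from replicates 2 and 4, 0 were called. The calls without replicate 2 or 4 fell to 0 without the dye effect, a setting added after the data were seen. Clones above background in all 8 readings numbered 14, and 36 and 9 with 1 and 3 background SDs, 33 by the empty spots, 9 where every spot had to pass, and 15 to 19 with a replicate left out. Clones above background in no reading numbered 19, and 1, 72, 4, 35 and 20 to 37 under those settings. Over all gene clones the shares in all readings measured were 23.6%, 7.74%, 20.05%, 8.25% and 10.9% to 12.8%, and in none 0.123%, 52.7%, 4.67%, 29.8% and 15.6% to 33.3%. The mean difference in detection between groups, 12.5 clones, was -3.75 with 1 background SD, 0 by the empty spots, and -12.3 to 33 with a replicate left out, so its sign was not settled. The median log2 ratio of the clones, 0.0093, was -0.074 in detected clones only, -0.028 to 0.029 with a replicate left out, and -0.028 without replicate 2 and the dye effect. For the other muscle genes it was -0.027 without background correction. The difference between replicate spots, 0.21, was 0.23 with an offset of 16 and 0.30 in the authors' deposited log2 ratios. The causes were not tested. None of the 106 alternative values of the 8 clones named for 1 sign on all arrays passed the test or changed sign. With a replicate left out or no dye effect the sign could not change, because the clones were chosen for 1 sign. Median signal over all gene clones was 0.570 to 0.609 times its threshold in Cy3 and 0.896 to 1.28 times in Cy5, so small signals could not be told from background.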
